A study of Homo sapiens with 3 samples.

Results

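Long runs of YBX1 peaks are stretches of the genome where at least 10 peaks follow one another with no gap above 5 kb. They were found by sorting the deposited peaks by chromosome and start, joining neighbours when the next start lay 5000 bp or less after the previous end, and keeping joined runs of 10 or more. Of the 17802 peaks in the list, 3362 (18.9%) were members, and they formed 215 runs. Members were thus chosen by the measured positions of the peaks, so the number of peaks in a run and its gaps describe the rule and were not tested. The source was T24, an established human bladder carcinoma line, in 3 groups of 1 sample each: an input (RIP input), a capture (YBX1 RIP), and a capture whose RNA was treated with bisulfite. RIP is the capture of a protein together with its RNA. Per the labels' protocols, the cells overexpressed Flag-tagged YBX1, which the input shares with the captures, and the captured RNA was trimmed with micrococcal nuclease. For the bisulfite sample the source label reads T25 and the characteristics label T24. No capture from cells without the tagged protein is among the samples, and the list does not name the libraries behind it. No expression values were analysed here, so the cell line could not be checked against its markers.

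YBX1 is a cold-shock-domain protein that coats messenger RNA in the cytoplasm, takes part in its translation and stability, and can read the methylated base m5C in RNA. In a mature mRNA the exons are joined and the introns are gone. When reads of such an RNA are laid on the genome, exons carry signal and introns do not, so that 1 bound transcript can appear as many peaks separated by gaps. Most internal exons of human coding genes are shorter than the narrowest peak of this list, which is 400 bp wide. Introns range from shorter than such a peak to far longer than the joining distance of 5 kb. A peak that reaches past its exon shortens the gap, and exons that lie very close can fall under 1 peak. A gap is therefore not an intron length. No exon, intron or gene was placed here, and no gene table was used. The only ones at hand follow another build, GRCh38.p14, while the peaks are on hg19. For the same reason no sequence is printed. Lengths, unlike positions, do not need a shared build, but gaps and widths were not set against measured exon or intron lengths either. Runs are named by their hg19 positions as deposited.

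The 215 runs held between 10 and 50 peaks, with a median of 13 and quartiles of 11 and 18. Small runs were the most frequent: 45 runs had exactly 10 peaks, 29 had 11 and 31 had 12. Only 39 runs had 20 or more peaks, yet these held 1115 of the members (33.2%), and 15 runs had 30 or more. Spans ran from 13.2 to 105 kb around a median of 27.4 kb (quartiles 22.6 and 36.7 kb). Together the runs spanned 6.83 Mb, of which 2.26 Mb (33.1%) lay under peaks. These bases were 19.8% of all bases under peaks in the list, close to the members' 18.9% share of peaks.

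At the limit of the rule, 45 runs had 10 peaks and 46 runs had 9. The runs of 10 had a median span of 22.4 kb, a median of their median gaps of 1390 bp and a median of 29.5% of the span under peaks. For the runs of 9 the corresponding values were 17.9 kb, 1156 bp and 29.6%. The limit on gaps fell in a smooth part of the distribution too, with 348 gaps above 4500 and up to 5000 bp and 322 gaps above 5000 and up to 5500 bp over the whole list. The counts just inside and just outside each limit were thus similar.

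The run with the most peaks lay on chromosome 7, from 98487804 to 98592622, and was also the longest. Its 50 peaks were narrow, with a median width of 487.5 bp, a range from 400 to 1225 bp and 31 peaks under 500 bp. Its 49 gaps had a median of 1220 bp and ran from 186 to 4912 bp. Of these gaps, 18 were 1000 bp or less and 8 were above 3000 bp. The pair of longest gaps, of 4804 and 4912 bp, stood next to each other on both sides of the 24th peak, near the middle of the run. Either gap would have cut this run at a joining distance of 4000 bp.

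**Figure D1:**
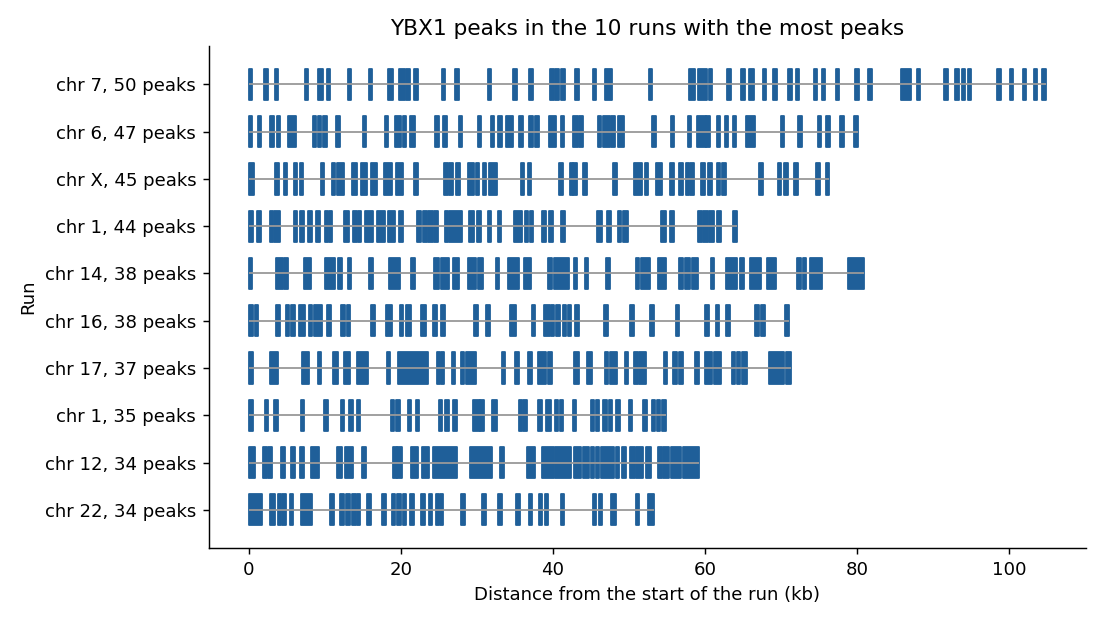
Peaks (blue blocks) in the 10 runs with the most peaks, drawn to scale from the start of each run (x axis, kb); the grey line is the span of the run. The run of 50 peaks on chromosome 7 covers 105 kb with 25.7% of its span under peaks, and that of 34 peaks on chromosome 12 covers 59.2 kb with 55.5% under peaks.

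The other runs with the most peaks differed more in how densely they were filled than in the number of peaks. On chromosome 6, the run of 47 peaks from 90362552 to 90442647 had a median gap of 902 bp and no gap above 3708 bp. The run of 45 peaks on the X chromosome, from 53559740 to 53636055, had a median gap of 792.5 bp and a largest gap of 4381 bp. The run of 44 peaks on chromosome 1, from 19464320 to 19528497, had a smaller median gap, 562 bp, and 6.86 peaks per 10 kb, against 4.77 in the run on chromosome 7. All 4 of these runs were built from narrow peaks, with median widths from 476 to 514 bp and only 2 or 3 peaks of 1000 bp or more in each.

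Wider peaks filled other runs among the 10. The run of 38 peaks on chromosome 14, from 102441862 to 102522853, had 13 peaks of 1000 bp or more, the most of any run, and a median width of 661.5 bp. Its widest peak, of 2198 bp, was the last in genome order and followed the largest gap of the run, 3362 bp. The run of 34 peaks on chromosome 12, from 57547823 to 57607039, had a median width of 723 bp and 9 peaks of 1000 bp or more. In contrast, no peak reached 1000 bp in the run of 38 peaks on chromosome 16 (18840535 to 18911538) or in the run of 35 peaks on chromosome 1 (19400911 to 19455750). The run of 37 peaks on chromosome 17, from 78298651 to 78370017, had a median width of 529 bp. It held 6 peaks of 1000 bp or more, the widest of 3917 bp. The run of 34 peaks on chromosome 22, from 36677202 to 36730460, began with its widest peak, of 1735 bp, and otherwise consisted mostly of narrow peaks, with a median of 446 bp.

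Over all runs, span grew with the number of peaks (Pearson's r = 0.90, Spearman's rho = 0.76 over 215 runs). The relation is partly built in, since each peak adds at least 400 bp and at most 5 kb of gap. Density changed less: runs of 10 to 12 peaks had a median of 4.61 peaks per 10 kb, runs of 13 to 19 had 5.25 and runs of 20 or more had 5.15. Single runs lay between 2.31 and 8.71 peaks per 10 kb.

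**Figure D2:**
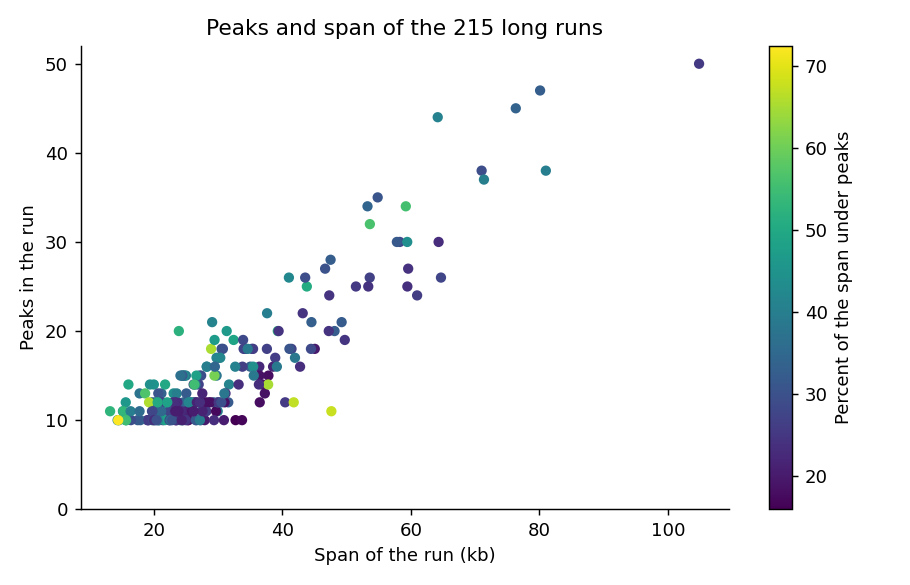
Peaks in each of the 215 long runs (y axis) against the span of the run (x axis, kb); each point is a run and its colour gives the percent of the span under peaks. Spans reach from 13.2 to 105 kb, and the 22 runs with more than 50% of the span under peaks have a median span of 25.1 kb.

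Gaps inside the runs were mostly shorter than 2 kb. The 3147 gaps had a median of 1049 bp, with quartiles of 455.5 and 2145 bp, and ran from 81 to 4984 bp. Of these gaps, 48.3% were 1000 bp or less, 72.1% were 2000 bp or less and 5.18% were above 4000 bp. Gaps of more than 200 and up to 400 bp formed the fullest class for its size, with 452 gaps (14.4%, 95% Wilson interval 13.2 to 15.6%). The 246 gaps of 200 bp or less (7.82%) all measured at least 81 bp, the smallest gap in the list. Intervals here and below cover counting error only and treat peaks or gaps as independent, although those of a run share a place. The read depth behind each peak is unknown.

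Runs of 2 to 9 peaks, joined by the same distance, had longer gaps, with a median of 1407 bp (quartiles 550 and 2752 bp, 5901 gaps). In these shorter runs 39.3% of gaps were 1000 bp or less and 9.54% were above 4000 bp. The difference is not a finding about long runs, because a stretch with small gaps is more readily joined into a run of 10. The share of gaps of 200 bp or less, 7.90%, was close to the 7.82% in long runs. The distributions parted above that size, with 10.9% of gaps in shorter runs above 200 and up to 400 bp.

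**Figure D3:**
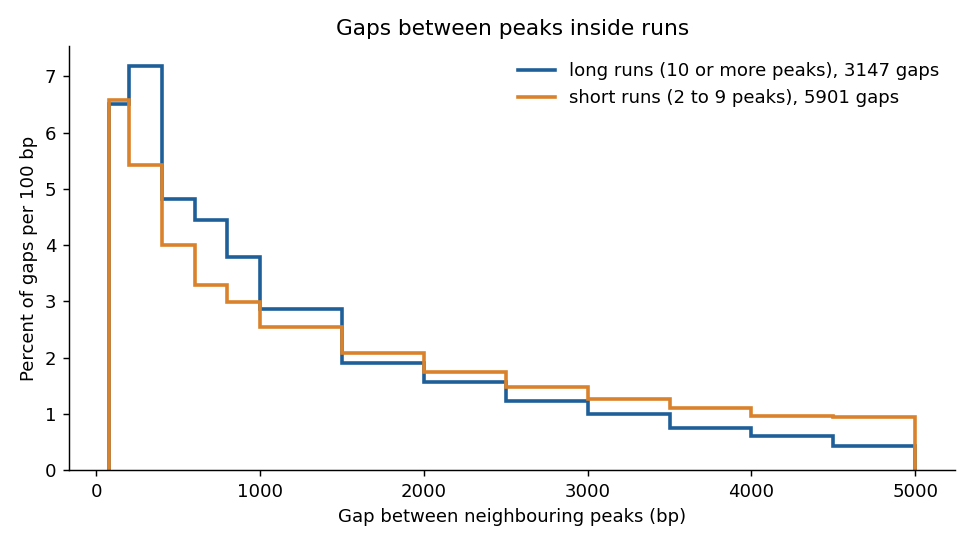
Gaps between neighbouring peaks inside runs (x axis, bp) as percent of gaps per 100 bp (y axis), for long runs (blue, 3147 gaps) and for runs of 2 to 9 peaks (orange, 5901 gaps); classes are of unequal size and the first starts at 80 bp. Both lines are highest at or below 400 bp and fall up to the joining distance of 5000 bp, and the line of long runs lies lower above 1500 bp.

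Set against the widths of the peaks beside it, a gap inside a long run was longer than both peaks in 1974 of 3147 cases (62.7%) and shorter than both in 877 (27.9%). In runs of 2 to 9 peaks the shares were 69.1% (4080 of 5901) and 22.6%. Start-to-start spacing, the gap plus the width of the peak before it, had a median of 1713 bp with quartiles of 1110 and 2827 bp. Where each peak marks 1 exon and reaches equally far past its start, this spacing spans an exon and the next intron in genome order. How many peaks mark 1 exon was not tested. In runs of 2 to 9 peaks the median spacing was 2077 bp.

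Gaps within a run were uneven. The coefficient of variation of the gaps of a run, their SD divided by their mean, had a median of 0.79 over the 215 runs (quartiles 0.68 and 0.93). It was under 0.5 in 11 runs and above 1 in 39. The largest gap of a run was a median of 21.9 times its smallest (quartiles 13.5 and 31.5). This ratio and the coefficient depend on the joining rule, which bounds every gap, and were not tested. The smallest gap had a median of 173 bp and the largest a median of 4070 bp, so that a typical run held both gaps narrower than a peak and gaps near the joining distance. In 36 runs the smallest gap was under 100 bp. A gap said little about the next one: over 2932 pairs of neighbouring gaps, which share runs, Spearman's rho was 0.09 and Pearson's r 0.09.

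The most even run lay on chromosome 22 from 18368481 to 18389755, with 12 peaks and a coefficient of variation of 0.30. In genome order its gaps were 921, 1324, 1968, 1906, 1017, 1037, 2144, 1008, 1323, 1577 and 1416 bp. Its peaks were nearly equal as well, between 404 and 594 bp, so the run is a row of narrow peaks with no gap below 921 bp. The least even run, also of 12 peaks, lay on the X chromosome from 153275964 to 153298085 and had a coefficient of variation of 1.44. Its gaps were 371, 1106, 4921, 168, 2715, 591, 176, 300, 105, 242 and 690 bp. A single gap of 4921 bp, close to the joining distance, thus separated its first 3 peaks from the rest, and peaks of 1485, 1181 and 3271 bp lay among the narrow gaps of its second part.

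Most long runs were held together by at least 1 long gap. The largest gap was 4000 bp or less in 96 of the 215 runs (44.7%), 3000 bp or less in 35 and 2000 bp or less in 10. Broken at every gap above 2000 bp, a run fell into a median of 5 pieces, and 45 runs kept a piece of 10 or more peaks. Broken at every gap above 1000 bp, it fell into a median of 8 pieces, no run stayed whole and 9 runs kept a piece of 10. The longest stretch with no gap above 1000 bp held 13 of the 34 peaks of the run on chromosome 12 described above. It lay from 57584453 to 57600674, had a median gap of 256.5 bp and a largest gap of 971 bp, and was under peaks over 73.7% of its 16.2 kb.

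Peak width entered the rule only through the ends of peaks: at a given spacing a wider peak leaves a smaller gap and is more readily joined. Widths of members and of other peaks are therefore not independent of the choice and are given side by side as a description. Members had a median width of 489.5 bp (quartiles 441 and 704 bp), against 474 bp (426 and 658 bp) for the 8735 peaks in runs of 2 to 9 and 455 bp (416 and 559 bp) for the 5705 single peaks. Peaks of exactly 400 bp, the narrowest width in the list, made up 2.32% of members (95% Wilson interval 1.86 to 2.89%), 5.47% (5.01 to 5.97%) of peaks in shorter runs and 10.2% (9.44 to 11.0%) of single peaks. In 160 of the 215 runs no peak had this width. Peaks of 1000 bp or more made up 11.5% (10.5 to 12.6%) of members, 10.8% (10.2 to 11.5%) of peaks in shorter runs and 7.20% (6.56 to 7.90%) of single peaks. With 1 peak list and no replicate these differences were not tested.

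The narrowest widths were less frequent among members than elsewhere. Widths from 400 to under 450 bp made up 30.5% of members, 39.4% of peaks in shorter runs and 47.2% of single peaks. Widths from 450 to under 500 bp made up 23.3%, 18.0% and 17.7%, and those from 500 to under 550 bp 10.4%, 8.09% and 9.10%. The order changed from 550 to under 600 bp, where members had the lowest share, 4.10%, against 5.09% and 4.82%. From 800 to under 1000 bp, a wider class, the shares were 8.24%, 6.46% and 4.38%. The curve of members therefore rises later than the others. Between the class that ends at 550 bp and the equal class after it, shares fell in members, shorter runs and single peaks alike. The fall was largest in members. Peaks of 5000 bp or more were rare in each class, with 8 members, 31 peaks in shorter runs and 10 single peaks.

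**Figure D4:**
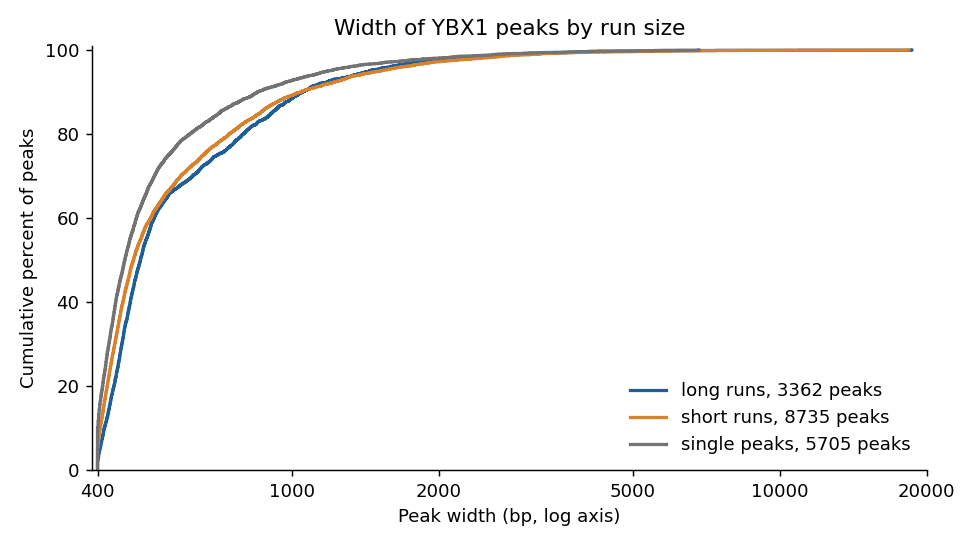
Cumulative percent of peaks (y axis) by width (x axis, bp, log axis) for members of long runs (blue, 3362 peaks), peaks in runs of 2 to 9 (orange, 8735) and single peaks (grey, 5705). The curves start at 400 bp, the narrowest width, and the medians follow in the order 489.5, 474 and 455 bp.

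Runs differed in whether they were built from narrow or from wide peaks. The median width of a run lay between 413 and 1354 bp, and for the middle of the runs between 460 and 574 bp (quartiles). In 68 runs (31.6%) no peak reached 1000 bp, in 53 exactly 1 peak did and in 23 at least 5 did. Runs with wider peaks had smaller gaps: over the 215 runs, median width and median gap had a Spearman's rho of -0.53 and a Pearson's r of -0.38. For single gaps the relation was weak. Over 3147 gaps, a gap and the mean width of its peaks had a Spearman's rho of -0.14 and a Pearson's r of -0.04. The runs share 1 list and the sum of width and gap is limited by the spacing, so both relations are a description. In the 54 runs with the lowest median widths (up to 459.5 bp) the median gap was 1503 bp and the median spacing 2008 bp. In the 54 with the highest (from 579.5 bp) they were 689.5 and 1646 bp. The share of the span under peaks was 25.1% in the former and 46.6% in the latter, while the median number of peaks was 12 and 13.

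**Figure D5:**
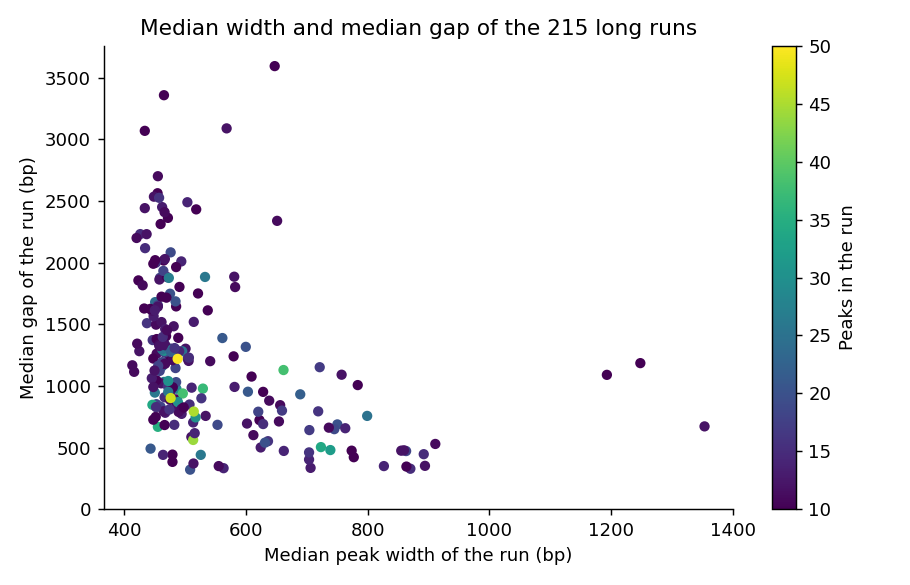
Median gap (y axis, bp) against median peak width (x axis, bp) of the 215 long runs; each point is a run and its colour gives its number of peaks. Runs with a median width up to 459.5 bp have median gaps from 491.5 to 3069 bp, and those from 579.5 bp have median gaps mostly below 1000 bp.

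Coverage of a run by peaks had a median of 31.2% (quartiles 24.7 and 40.7%). It exceeded 50% in 22 runs and was below 20% in 16. The most covered run, with 72.4% of 14.5 kb under 10 peaks, lay on chromosome 9 from 139904374 to 139918862. Its widths in genome order were 626, 2395, 514, 431, 1287, 1447, 784, 943, 1659 and 407 bp, and its gaps were 559, 481, 289, 157, 346, 151, 842, 118 and 1052 bp. Narrow and wide peaks were interspersed there. The least covered run, with 16.0% of 32.7 kb under 10 peaks, lay on chromosome 1 from 156905338 to 156938077. Its widths were 621, 412, 408, 424, 699, 447, 401, 630, 710 and 483 bp, and its gaps were 3358, 3908, 644, 2391, 2994, 3702, 2662, 3803 and 4042 bp. All but 1 of these gaps exceeded 2 kb, and the run is whole only at a joining distance of 4042 bp or more.

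The shortest run, named by rule, lay on chromosome 11 from 64022239 to 64035468. It packed 11 peaks into 13.2 kb with no gap above 1469 bp. The further extremes that follow were chosen after their values had been seen. The smallest median gap, 321 bp, belonged to a run of 20 peaks on the X chromosome, from 70338359 to 70362280. The largest, 3594 bp, belonged to a run of 10 peaks on chromosome 2, from 10444428 to 10473815. On chromosome 17, from 40042223 to 40070280, a run of 12 peaks had no peak wider than 468 bp. The widest peak of any run, 18654 bp, was the third of 11 peaks in a run on chromosome 14, from 105397257 to 105444894. That peak alone took up 39.2% of the span, out of 67.7% under peaks, and the run had the lowest density of all 215, 2.31 peaks per 10 kb.

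A larger share of end peaks than of inner peaks was wide. In an mRNA the exon at the 3′ end, which usually holds the 3′ UTR, is often the longest. Of the 430 first and last peaks, 79 (18.4%) were 1000 bp wide or more, against 308 of 2932 inner peaks (10.5%). Neither this difference nor a link of wide end peaks to exons at the 3′ end was tested. Medians were closer, at 506.5 bp for end peaks and 488 bp for inner peaks. A wide peak stood at 1 end in 65 runs, at both ends in 7 and at neither in 143. In genome order 34 runs began and 45 ended with one. The list gives no strand, so first and last cannot be read as 5′ and 3′. No gene was placed, so the end of a run need not be the end of a transcript. The widest peak of a run was the first in 20 runs (9.30%), the last in 36 (16.7%) and an inner peak in 159 (74.0%). First and last places made up 430 of the 3362 members, and inner places 2932. These pooled counts weigh larger runs more, while each run has only 1 widest peak. End places are a larger share of small runs, so the pooled share is below the one matched to 1 peak per run. The counts of widest peaks come from the same widths and are a description.

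The first and last gaps had a median of 1126 bp (quartiles 487 and 2520 bp, 430 gaps) and inner gaps a median of 1035 bp (450 and 2119 bp, 2717 gaps). The 95% intervals of these medians were 993 to 1311 bp and 984 to 1100 bp. Gaps are bounded by the joining rule, so their differences by place are a description and were not tested. Taken apart, first gaps had a median of 1042 bp (837 to 1260 bp) and last gaps one of 1242 bp (982 to 1531 bp). The 90th percentile was 4018 bp for first and last gaps and 3322 bp for inner gaps. The largest gap of a run was its first in 15 runs (6.98%) and its last in 31 (14.4%), where first and last gaps made up 430 of the 3147 gaps. In the 56 runs whose widest peak lay at an end, the gap beside that peak had a median of 997.5 bp and the gap at the other end 1202 bp, and the latter was the longer in 31 of 56. In 5 equal parts of the order within a run, median gaps were 1106, 1040, 971, 981 and 1215 bp and median widths 490, 490, 486.5, 488 and 492 bp. Median widths along a run thus lay between 486.5 and 492 bp. Median gaps were lowest in the middle part and highest in the last. The 95% intervals of the middle and last parts overlapped (869 to 1081 bp and 1052 to 1320 bp).

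Outside the runs, the next peak lay more than 5 kb away by the rule. The distance was not summarised for other joined places or single peaks, so there is no value to compare it with. A gap between neighbouring long runs is counted from both sides. From the 430 run ends, the distance to the next peak had a median of 11044 bp, with quartiles of 6662 and 60559 bp. At 80 ends it lay within 6 kb and at 196 ends (45.6%) within 10 kb, while at 88 ends (20.5%) it was above 100 kb. Only 14 runs had more than 50 kb free of peaks on both sides. The bounds of many runs therefore rest on a gap of 5 to 10 kb.

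Some long runs neighboured each other. With up to 10 kb allowed between runs, 23 of the 215 formed 11 groups, 10 of them pairs, separated by 5168 to 8911 bp. The only group of 3 lay on chromosome 6 from 90362552 to 90504698, where runs of 47, 15 and 10 peaks, separated by 5264 and 8684 bp, held 72 peaks over 142 kb. On chromosome 1 the runs of 35 and 44 peaks from 19400911 to 19528497, separated by 8570 bp, held 79 peaks over 128 kb and had more peaks than any single run. The other pairs on chromosome 1 held 33, 35 and 27 peaks. The pairs on chromosomes 12, 3 and 9 held 38, 37 and 31 peaks.

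Long runs were found on 23 chromosomes, namely all autosomes and the X chromosome. Chromosome 1 had 29 runs, chromosome 17 had 19 and chromosome 12 had 17, while chromosome 18 had 1. As a share of a chromosome's own peaks, members were most frequent on chromosome 6 (299 of 1007, 29.7%) and chromosome 14 (185 of 657, 28.2%). Chromosome 19, with 998 peaks, had only 122 of them (12.2%) in 10 runs. Chromosome 18 had the lowest share among chromosomes with a run, 18 of 218 (8.26%). Neither of the 2 peaks on the Y chromosome nor any of the 6 mitochondrial peaks was a member.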

How the data were processed

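The deposited file is 1 list of YBX1 peaks whose values, per the file headers, are a chromosome, a start and an end. Trimmomatic, MACS2 and hg19 are named in the submitters' processing notes without versions. How reads were aligned, which threshold and libraries the call used and whether peaks were filtered is not stated in the labels or the file used here. Whether positions count from 0 or 1 is not stated. A minimum width or a merging of close peaks in that processing would set the smallest widths and gaps.

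Width was taken as end minus start and gap as next start minus previous end. Medians of pooled peaks or gaps, their order-statistic 95% intervals and Wilson intervals were computed with scipy 1.17.1, pandas 2.3.3 and numpy 2.4.6 under Python 3.11.15. No test between conditions was possible with 1 sample in each group. The joining functions were tested on simulated runs. Runs were named by rule: the 10 with the most peaks and those with extreme span, coverage or evenness of gaps. The members and measures were chosen with earlier results of these data known.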

Additional observations from a re-analysis of the deposited data

How the results depend on the processing

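Of 53 alternatives computed over 9 results, 27 stayed within 1.5 times a reported count or within the 95% interval of a reported median, and 26 did not. The joining distance moved most values by its construction. With 2000 bp there were 46 runs of 610 peaks, with a median gap of 598.5 bp, spacing of 1352 bp, width of 523 bp, coverage of 50.7% and coefficient of variation of 0.64. With 3000 bp there were 109 runs of 1526 peaks, and these medians were 786 bp, 1483 bp, 503.5 bp, 40.5% and 0.74. With 10000 bp the 314 runs held 5683 peaks, and the medians were 1383 bp, 2064 bp, 481 bp, 23.3% and 0.89. Requiring at least 15 peaks left 86 runs of 1896 peaks, with a median gap of 981 bp and spacing of 1644 bp. The median over runs of their own medians was 1145 bp for gaps and 481.5 bp for widths. Requiring 8 peaks, merging peaks closer than 100 bp or leaving out peaks of exactly 400 bp moved no result past these limits. No share of peaks over exons was computed, since no hg19 annotation was used here. The planned comparison with exon and intron lengths, which needs no shared build, was not made. No paired analysis was possible because no group has a second sample. Without read counts, the depth below which a peak of a run would be missed is unknown.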
